A study of Homo sapiens with 96 samples.

Results

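Tandem acceptors 3 nt apart are pairs of 3′ splice sites of 1 intron that differ by 3 nt, so that both spliced forms keep the reading frame. Members were the alternative 3′ splice site (A3SS) rows of 8 splicing tables of A549 cells in which the long form of the exon exceeds the short form by exactly 3 nt. This rule uses coordinates only and no measured value, but every listed row had reads of both forms in some library. It found 1250 of the 10117 distinct A3SS rows, which reduce to 902 of 8188 acceptor pairs (11.0%) in 830 genes. A pair is listed more than once where its row differs in the flanking exon, and for 257 of the 902 pairs the row with the most reads was used. The poly(A)-RNA seq libraries fall into 10 groups of 3 libraries each. A549 is an established cell line of human lung adenocarcinoma. The groups are DMSO (0.01%) for 4 or 7 days, GSK591 (1 µM) for 2, 4, or 7 days, MS023 (1 µM) for 2, 4, or 7 days, and GSK591 plus MS023 (1 µM of each) for 2 or 4 days, called co-treatment. GSK591 blocks PRMT5, the main enzyme of symmetric arginine dimethylation, and MS023 blocks the Type I PRMTs, which dimethylate arginine asymmetrically. Inhibitor libraries of 2 and 4 days were set against DMSO of 4 days, and those of 7 days against DMSO of 7 days, so the 2- and 4-day comparisons share their control libraries. The identity of the 7-day control was inferred from the labels. Letters a, b, and c stand for the order in which a table lists the libraries of a group, as it gives no replicate numbers. Nothing in the sources used here ties these libraries to separate cultures, so p-values measure only the spread between libraries. The test moderated that spread across all A3SS rows, so a p-value does not rest on the libraries of its own pair alone.

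The 3′ splice site is chosen in the late steps of spliceosome assembly. U2AF binds the polypyrimidine tract and the first AG, and the AG that is joined is settled at the second catalytic step. Where AG occurs again after 3 nt the site has the form NAGNAG, and both AGs can be joined, which adds or removes a single codon or exchanges residues at the exon junction. Arginine methylation is carried by many of the proteins involved, among them Sm proteins and RNA-binding proteins. Ψ is used here for the share of the long form, which joins the upstream (intron-proximal) AG and keeps the 3 nt in the mRNA. ΔΨ is the mean Ψ with inhibitor minus that with DMSO, so a positive ΔΨ means more use of the upstream acceptor.

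The sequences around 8 pairs that the results turn on are printed from GRCh37 (hg19), 5′ to 3′ on the strand of the gene. Each window has 30 bases, of which 18 lie in the intron, 6 in capitals end at the downstream acceptor, and 6 lie in the exon of both forms. The long form starts after the third capital and the short form after the sixth. CAMK2D, MLST8, and LLGL2 are shown because they were called in several comparisons, and C19orf55 because it was called at 4 days with each treatment. GNAS and CNBP are shown because their upstream acceptor has no AG, and ZZZ3 and P2RX5 because their 2 AGs follow different bases.
CAMK2D, chr4:114430823-114430852, minus strand: gattttactctcattttaCAGCAGccaaga
MLST8, chr16:2256338-2256367, plus strand: catcctccttaacagtccCAGCAGgtgaat
LLGL2, chr17:73570931-73570960, plus strand: ctgtccctctgtgtccttCAGCAGagtgag
C19orf55, chr19:36253133-36253162, plus strand: acctcaactggggcttctCAGCAGgagcca
GNAS, chr20:57478562-57478591, plus strand: cttttcttttcaatcccaCTGCAGtgagaa
CNBP, chr3:128890115-128890144, minus strand: tgtttcttttccttattgTTGAAGcctgct
ZZZ3, chr1:78047568-78047597, minus strand: gtatgtggtcttatttttCAGTAGgtttac
P2RX5, chr17:3592916-3592945, minus strand: ctgcccatggcctccaccCAGAAGcaatgt

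Of the 902 pairs, 874 (96.9%) had AG at both acceptors on the strand of the gene and so matched NAGNAG, in which N is any base. Of the 28 others, 22 lacked AG only at the upstream acceptor, 4 only at the downstream acceptor, and 2 at both. The most frequent arrangement was CAG-CAG with 364 pairs (40.4%), followed by TAG-CAG with 155, AAG-CAG with 83, and CAG-AAG with 73. The intron started with GT in 890 pairs, with GC in 11, and with AT in 1. Its median length was 1440 nt, with a range from 71 to 152986 nt. Both acceptors were annotated in GENCODE in 862 pairs (95.6%). In 792 pairs the acceptors lay before coding sequence, in 75 in a 5′ UTR, in 7 in a 3′ UTR, and in 27 in a noncoding transcript, and 1 pair started at the first codon. The 3 nt added 1 residue without other change in 736 of the 792 coding pairs (92.9%). In 45 coding pairs 1 residue was replaced by 2, in 10 the long form had a stop codon at the junction, and in 1 the short form had one. No gene held more than 4 pairs, 766 genes held a single pair, and 4 pairs shared an acceptor with another pair. These were pairs of CNBP and FBF1, where the downstream acceptor of 1 pair is the upstream acceptor of the other.

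Among the listed pairs both forms were in common use without inhibitor. As each of the 1250 rows had reads of both forms in some library, sites that join only 1 AG are not among them. Among the 678 pairs with at least 10 reads in each DMSO 4 days library, the median Ψ was 0.677, with quartiles of 0.366 and 0.893. The upstream acceptor held the larger share in 444 of these pairs (65.5%). The rarer form held 5% or more in 535 pairs and 20% or more in 326 (48.1%). In DMSO at 7 days the median Ψ was 0.662 over 642 pairs, and the rarer form held 20% or more in 324 of them. The median SD of Ψ over the 3 libraries was 0.0317 in DMSO at 4 days and 0.0328 at 7 days.

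The share of the upstream acceptor differed widely between classes of bases before the AGs. The highest shares among classes of 10 or more pairs were those of CAG-GAG, with a median Ψ of 1.00 over 21 pairs, CAG-AAG, with 0.954 over 61 pairs, and TAG-AAG, with 0.928 over 32 pairs. The lowest was that of GAG-CAG, with a median Ψ of 0.0321 over 10 pairs. An adenine before the upstream AG went with a low share where cytosine or thymine preceded the downstream AG. The medians were 0.308 over 67 AAG-CAG pairs and 0.311 over 14 AAG-TAG pairs. Where cytosine, thymine, or adenine preceded both AGs, the upstream acceptor held the larger share at the median, with a Ψ of 0.605 over 258 CAG-CAG pairs, 0.839 over 18 TAG-TAG pairs, and 0.692 over 13 AAG-AAG pairs. The quartiles of CAG-CAG pairs were 0.369 and 0.824. Pairs that lacked AG only upstream had a median Ψ of 0.0195 over 15 pairs, and those that lacked it only downstream 0.966 over 4 pairs. The share of pyrimidines in the 20 bases before the upstream triplet, whose median was 75%, did not follow Ψ (Spearman's rho of -0.00166 across 657 pairs, which share libraries and are not replicates).

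The A3SS rows of a table held 3540120 to 5576198 reads in each library, and the 902 pairs held 174704 to 288930, with medians of 99 to 192 reads per pair and library over the 554 pairs with at least 10 reads in each library. Over these 554 pairs the median Ψ of a library lay between 0.650 and 0.688, and the libraries of the groups lay close together. As the tables hold no gene expression, the cell type could be checked only through genes listed with an exon event. Of 6 epithelial markers, 5 were listed, KRT7, KRT8, KRT18, EPCAM, and CDH1, and 0 of 3 haematopoietic markers were. Any 2 libraries of a group differed by 1.54 to 2.36 times the sampling noise on A3SS rows (chi-square per degree of freedom), so no library was a copy of another.

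Few tandem acceptors were called with either inhibitor, and a pair that was not called is not thereby shown to be unchanged. The test was a quasi-binomial model of the counts of both forms, adjusted over all A3SS rows of a comparison, and a pair was called at an adjusted p under 0.05. In the 8 comparisons with DMSO, 687 of the 902 pairs were tested at least once, 554 of them in all 8, and 215 never had the 10 reads in every library that the test asked for. Together there were 67 calls in 45 pairs, of which 36 pairs were called once. With GSK591 at 2 days, 4 of 623 tested pairs were called, 3 with more and 1 with less use of the upstream acceptor. Of all A3SS pairs 4.88% were called in that comparison, and 2.97% were called with a higher share. With GSK591 at 4 days, 11 of 645 pairs were called, 6 higher and 5 lower, against 9.01% of all A3SS pairs called and 5.33% called higher. With GSK591 at 7 days, 10 of 606 pairs were called, 9 higher and 1 lower, against 6.70% and 3.56% of all A3SS pairs.

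Within each day MS023 gave the lowest count. At 2 days 1 of 642 pairs was called, which was higher, against 2.42% of all A3SS pairs called and 0.706% called higher. At 4 days 7 of 652 pairs were called, 4 higher and 3 lower, against 2.64% and 0.740%. At 7 days 4 of 619 pairs were called, 3 higher and 1 lower, against 3.39% and 0.839%. Co-treatment gave the highest count at 2 and at 4 days, with 11 of 622 pairs at 2 days, 7 higher and 4 lower, against 9.10% of all A3SS pairs called and 4.79% called higher. At 4 days of co-treatment 19 of 637 pairs were called, 11 higher and 8 lower, against 12.6% and 6.87%. The called share of tandem acceptors was thus below the share of all A3SS pairs in each of the 8 comparisons, and a test of this difference was not made. Tested tandem acceptors also had fewer reads, since the median over pairs of the lowest library was 94 reads with GSK591 at 4 days, against 133 for acceptors 4 to 50 nt apart and 181 for those over 50 nt apart. In that comparison 141 of 2181 pairs 4 to 50 nt apart and 355 of 2763 pairs over 50 nt apart were called.

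The median absolute ΔΨ of the tested pairs lay between 0.0201 and 0.0251 in the 8 comparisons, and it was 0.0198 between the DMSO groups of 7 and 4 days, in which no inhibitor was added. The median signed ΔΨ lay between 0.00228 and 0.00612. Of the 67 calls, 16 had an absolute ΔΨ under 0.05.

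**Figure D1:**
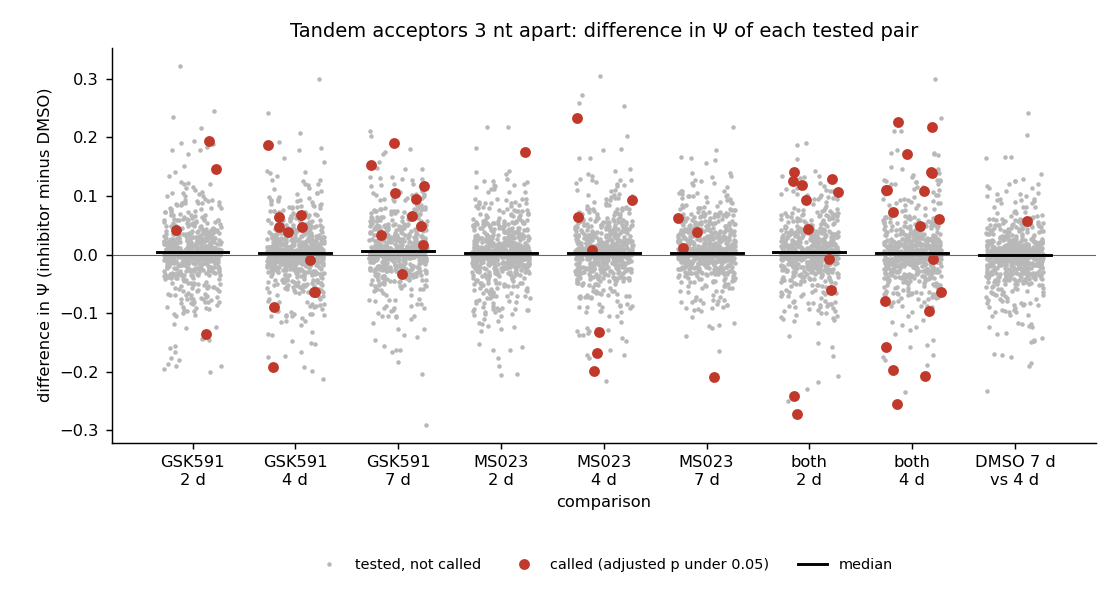
ΔΨ (y axis) of every tested pair in the 8 comparisons with DMSO and between DMSO at 7 and 4 days (x axis, "both" is co-treatment). Grey points are pairs that were not called, red points are called pairs, and black lines are medians, which lie between -0.000547 and 0.00612.

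The counts moved with single libraries. With GSK591 the count was 2 at 2 days without GSK591 library a. At 4 days it was 7 without GSK591 library b and 6 without DMSO library a or c. At 7 days it was 5, 6, and 4 without GSK591 library a, b, and c, and 6 without DMSO library b or c. With MS023 at 2 days the count was 2 without DMSO library c and 0 without any other. At 4 days the count fell to 1 if MS023 library a was left out and to 0 if MS023 library b or c or DMSO library b was, and at 7 days it was 1 without MS023 library a, b, or c and 2 without DMSO library a or c. With co-treatment at 2 days it was 4, 3, and 7 without co-treatment library a, b, and c, and 5, 3, and 4 without DMSO library a, b, and c. At 4 days it was 8 and 10 without co-treatment library a and c, and 11 and 7 without DMSO library a and b. A fit of log2 odds with limma called 1 pair with co-treatment at 2 days, 2 at 4 days, and 0 in the other 6 comparisons. In these 6, 13 to 31 of the 606 to 652 tested pairs had an unadjusted p under 0.05. With no effect, 5% of tested pairs would be expected to pass that threshold. Of the 67 calls, 16 were kept whichever library was left out. Of these, 15 lay in CAMK2D, MLST8, GNAS, C19orf55, P2RX5, NAP1L1, SRSF10, and GGT1, of which the last 3 were named after their values were seen.

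CAMK2D encodes the delta subunit of the calcium/calmodulin-dependent kinase II, and its CAG-CAG acceptor lies in an intron of 3652 nt, with first exon bases at 114430831 (long) and 114430828 (short) of chromosome 4. It was called in 7 of the 8 comparisons, more than any other pair, and moved in opposite directions with the 2 inhibitors. Ψ was 0.622, 0.593, and 0.450 in the DMSO 4 days libraries. With GSK591 it was 0.727, 0.789, and 0.728 at 2 days and 0.785, 0.690, and 0.753 at 4 days, all above each DMSO library. With MS023 it was 0.461, 0.654, and 0.554 at 2 days, overlapping DMSO, and 0.404, 0.428, and 0.439 at 4 days, below it. Co-treatment gave 0.709, 0.685, and 0.645 at 2 days and 0.686, 0.698, and 0.704 at 4 days, on the side of GSK591. At 7 days Ψ was 0.590, 0.627, and 0.578 in DMSO, 0.797, 0.770, and 0.796 with GSK591, and 0.427, 0.397, and 0.342 with MS023, so that no library of 1 group overlapped another group.

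For CAMK2D, GSK591 gave a ΔΨ of 0.193 ± 0.0571 after 2 days, of 0.188 ± 0.0601 after 4 days, and of 0.189 ± 0.0171 after 7 days (± SE of the difference, n = 3 and 3 libraries here and below), with adjusted p (quasi-binomial model with limma dispersions) of 0.000462, 0.000142, and 2.64e-05. With MS023 it was 0.00182 ± 0.0770 at 2 days (adjusted p = 0.991), -0.131 ± 0.0543 at 4 days (adjusted p = 0.0179), and -0.210 ± 0.0288 at 7 days (adjusted p = 3.50e-05). Co-treatment gave 0.125 ± 0.0564 at 2 days (adjusted p = 0.0253) and 0.141 ± 0.0535 at 4 days (adjusted p = 0.00312). The calls with GSK591 and that with MS023 at 7 days were kept without any 1 library. The calls with MS023 at 4 days and co-treatment at 2 days each held in 1 of the 6 fits that leave out 1 library, with the highest adjusted p without DMSO library b and c, respectively (0.272 and 0.321). That with co-treatment at 4 days was lost without DMSO library c (adjusted p = 0.111). GSK591 set directly against MS023 gave a difference of 0.191 ± 0.0593 at 2 days, 0.319 ± 0.0297 at 4 days, and 0.399 ± 0.0262 at 7 days (adjusted p = 5.66e-05, 1.26e-19, and 8.53e-20). Of these, the differences at 4 and 7 days were also called by limma on log2 odds (adjusted p = 0.0474 and 0.0468), while limma called CAMK2D in none of the 8 comparisons with DMSO (adjusted p from 0.174 to 0.626 where the main test called it). The interaction test did not call a difference between the ΔΨ at 7 and at 4 days (adjusted p = 0.942 with GSK591 and 0.754 with MS023).

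MLST8 encodes a subunit shared by both mTOR complexes. Its CAG-CAG acceptor lies in an intron of 143 nt, with first exon bases at 2256359 and 2256362 of chromosome 16. The upstream acceptor took most of the reads in DMSO at 4 days, with Ψ of 0.944, 0.925, and 0.953. It was lower with GSK591, at 0.768, 0.820, and 0.829 after 2 days and 0.826, 0.863, and 0.863 after 4 days. Co-treatment gave the lowest values, with 0.705, 0.751, and 0.642 at 2 days and 0.736, 0.768, and 0.728 at 4 days. None of these libraries overlapped DMSO. With MS023, Ψ was 0.926, 0.947, and 0.927 at 2 days and 0.950, 0.894, and 0.933 at 4 days, which overlapped DMSO. At 7 days Ψ was 0.954, 0.921, and 0.934 in DMSO, 0.913, 0.915, and 0.874 with GSK591, and 0.926, 0.916, and 0.954 with MS023, so that GSK591 lay below DMSO and MS023 overlapped it.

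The ΔΨ of MLST8 was -0.135 ± 0.0208 with GSK591 at 2 days and -0.0903 ± 0.0148 at 4 days, and with co-treatment -0.242 ± 0.0326 at 2 days and -0.197 ± 0.0146 at 4 days (adjusted p = 9.69e-07, 0.000125, 8.97e-14, and 8.04e-10). All 4 calls were kept without any 1 library, and both calls with co-treatment were also made by limma on log2 odds (adjusted p = 0.0483 and 0.0381). At 7 days the ΔΨ with GSK591 was -0.0355 ± 0.0163, which was not called (adjusted p = 0.303), and the interaction test did not separate it from that at 4 days (adjusted p = 0.557). The ΔΨ with MS023 was -0.00799 ± 0.0107, -0.0153 ± 0.0184, and -0.00403 ± 0.0148 at 2, 4, and 7 days, with adjusted p from 0.691 to 0.930. GSK591 was lower than MS023 by -0.127 ± 0.0203 at 2 days (adjusted p = 4.18e-08) and -0.0751 ± 0.0205 at 4 days (adjusted p = 0.000419).

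GNAS encodes the α subunit of the stimulatory G protein. Its upstream acceptor follows CTG rather than an AG, yet it took most of the reads. With 1912 to 3619 reads per library, Ψ in DMSO at 4 days was 0.673, 0.679, and 0.671. With GSK591 it was 0.733, 0.709, and 0.708 at 2 days and 0.712, 0.721, and 0.704 at 4 days, all above DMSO. Co-treatment gave 0.722, 0.717, and 0.717 at 2 days and 0.761, 0.745, and 0.733 at 4 days, again above DMSO. With MS023 the values were 0.689, 0.675, and 0.698 at 2 days and 0.676, 0.653, and 0.663 at 4 days and overlapped DMSO. In DMSO at 7 days Ψ was 0.699, 0.718, and 0.696, GSK591 (0.750, 0.707, and 0.722) overlapped it, and MS023 (0.696, 0.692, and 0.677) lay just below it.

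The ΔΨ of GNAS was 0.0419 ± 0.00843 with GSK591 at 2 days and 0.0378 ± 0.00524 at 4 days (adjusted p = 0.00585 and 0.00597), and 0.0440 ± 0.00289 and 0.0718 ± 0.00832 with co-treatment (adjusted p = 0.000791 and 3.88e-08). Both calls with GSK591 were lost without 1 library, that at 2 days without GSK591 library a (adjusted p = 0.0946) and that at 4 days without GSK591 library b (adjusted p = 0.0515). The calls with co-treatment were kept without any 1 library. None of them was made by limma on log2 odds (adjusted p from 0.481 to 0.785). At 7 days the ΔΨ with GSK591 was 0.0219 ± 0.0144 (adjusted p = 0.212) and that with MS023 -0.0160 ± 0.00894 (adjusted p = 0.435). The DMSO groups of 7 and 4 days differed by 0.0299 ± 0.00729 (adjusted p = 0.0718), which is close to the size of the GSK591 values.

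LLGL2, a cell polarity gene, was called with GSK591 at 2 days and with co-treatment at 2 and 4 days. Ψ was 0.641, 0.612, and 0.594 in DMSO at 4 days, and 0.743, 0.721, and 0.821 with GSK591 at 2 days, 0.707, 0.741, and 0.715 with GSK591 at 4 days, 0.715, 0.762, and 0.755 with co-treatment at 2 days, and 0.734, 0.759, and 0.680 with co-treatment at 4 days. These were all above DMSO, as were the MS023 libraries of 4 days (0.723, 0.732, and 0.687), while those of 2 days ranged from 0.561 to 0.718. The ΔΨ of the called comparisons was 0.146 ± 0.0332, 0.128 ± 0.0199, and 0.109 ± 0.0269 (adjusted p = 0.0392, 0.0196, and 0.0271). They held in 0, 2, and 1 of the 6 fits that leave out 1 library, with the highest adjusted p at 0.176 without GSK591 library c, 0.118 without co-treatment library b at 2 days, and 0.128 without co-treatment library b at 4 days. ANKFY1, which encodes an endosomal protein, was called with co-treatment at 2 days (ΔΨ of 0.142 ± 0.0578, adjusted p = 0.0204) and 4 days (0.110 ± 0.0297, adjusted p = 0.0499). Its Ψ was 0.196, 0.210, and 0.181 in DMSO, and 0.344, 0.433, and 0.235 at 2 days and 0.266, 0.291, and 0.361 at 4 days of co-treatment. These calls held in 1 and 0 of the 6 fits that leave out 1 library, and without co-treatment library b at 2 days and c at 4 days the adjusted p was 0.321 and 0.263.

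C19orf55 (current symbol PROSER3) fell at 4 days with each treatment. Ψ was 0.678, 0.678, and 0.623 in DMSO, 0.426, 0.440, and 0.538 with GSK591, 0.524, 0.468, and 0.485 with MS023, and 0.372, 0.653, and 0.481 with co-treatment, where library b lay within the range of DMSO. The ΔΨ was -0.192 ± 0.0398, -0.167 ± 0.0246, and -0.158 ± 0.0838 (adjusted p = 0.00210, 0.00707, and 0.0152). The call with GSK591 was kept without any 1 library. Those with MS023 and with co-treatment each held in 2 of the 6 fits, with the highest adjusted p without MS023 library b (0.116) and co-treatment library a (0.381). The 3 comparisons share the DMSO libraries. At 7 days, with its own DMSO, the mean Ψ was 0.603 ± 0.0333 (SD) in DMSO, 0.554 ± 0.0452 with GSK591, and 0.603 ± 0.0598 with MS023.

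Of the other pairs called with MS023, ZZZ3, whose protein belongs to a histone acetyltransferase complex, had 1 call at 2 days and 1 at 4 days. Ψ was 0.527, 0.527, and 0.672 in DMSO, 0.806, 0.697, and 0.746 with MS023 at 2 days, and 0.671, 0.871, and 0.881 at 4 days, where library a overlapped DMSO. The ΔΨ was 0.174 ± 0.0578 and 0.233 ± 0.0837 (adjusted p = 0.0210 and 0.00109), and the calls held in 1 and 3 of the 6 fits that leave out 1 library (adjusted p = 0.360 without MS023 library a at 2 days, and 0.207 without MS023 library c at 4 days). Beside a mean Ψ of 0.575 in DMSO, ZZZ3 had 0.698 and 0.701 with GSK591 at 2 and 4 days. With co-treatment the means were 0.684 and 0.698. These 4 groups were not called, and each overlapped DMSO. IKBKG, the regulatory subunit of the IκB kinase, has a partial and nearly identical copy on the X chromosome, so its counts are uncertain. Its Ψ was 0.820, 0.837, and 0.922 in DMSO at 4 days and 0.726, 0.554, and 0.703 with MS023 at 4 days, a ΔΨ of -0.199 ± 0.0623 (adjusted p = 0.00879). The call held in 1 of the 6 fits that leave out 1 library, with an adjusted p of 0.310 without MS023 library b. At 7 days of MS023, CAST, which encodes the calpain inhibitor calpastatin, had Ψ of 0.809, 0.816, and 0.807 against 0.769, 0.772, and 0.778 in DMSO. The DMSO 4 days libraries of CAST had 0.759, 0.824, and 0.771. PUF60, a splicing factor related to U2AF, had a Ψ of 1.00 in all 3 MS023 libraries against 0.939, 0.970, and 0.905 in DMSO. These PUF60 values rest on 53 to 86 reads per library. A Ψ of 1.00 also occurred in GSK591 library c at 4 days and co-treatment library b at 2 days. The ΔΨ was 0.0377 ± 0.00398 for CAST (adjusted p = 0.0383) and 0.0618 ± 0.0187 for PUF60 (adjusted p = 0.0218). They held in 0 and 1 of the 6 fits that leave out 1 library, with adjusted p of 0.164 without MS023 library b for CAST and 0.164 without DMSO library c for PUF60.

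With GSK591 at 7 days, TTC13 had Ψ of 0.825, 0.770, and 0.824 against 0.706, 0.556, and 0.697 in DMSO, a ΔΨ of 0.153 ± 0.0519 (adjusted p = 0.0344, and 0.255 without DMSO library b). MTA3, a subunit of the NuRD chromatin complex, had Ψ of 0.584, 0.691, and 0.588 against 0.572, 0.515, and 0.426, a ΔΨ of 0.117 ± 0.0552 (adjusted p = 0.0414, and 0.384 without GSK591 library b). CNBP, a nucleic acid-binding zinc finger protein whose upstream acceptor follows TTG, had Ψ of 0.255, 0.264, and 0.259 against 0.296, 0.288, and 0.294, a ΔΨ of -0.0336 ± 0.00343 (adjusted p = 0.0277, and 0.112 without GSK591 library a). This upstream acceptor is also the downstream acceptor of another CNBP pair, whose own upstream acceptor is not marked in the printed window. For TTC13, MTA3, and CNBP the 7-day groups did not overlap, and the calls held in 1, 1, and 0 of the 6 fits that leave out 1 library. At 2 and 4 days GSK591 gave mean Ψ of 0.764 and 0.724 for TTC13, 0.520 and 0.531 for MTA3, and 0.272 and 0.282 for CNBP. The DMSO 4 days means were 0.751, 0.547, and 0.298. TTC13 had 0.900, 0.624, and 0.728 in the DMSO 4 days libraries, a range that covers its GSK591 7 days values. With co-treatment at 4 days, P2RX5, an ATP-gated ion channel, had Ψ of 0.489, 0.4999, and 0.520 against 0.710, 0.686, and 0.737 in DMSO. Its ΔΨ of -0.208 ± 0.0174 (adjusted p = 0.00392) was kept without any 1 library. ANKS6, a ciliary protein, had Ψ of 0.533, 0.426, and 0.556 against 0.295, 0.411, and 0.296, a ΔΨ of 0.171 ± 0.0555 (adjusted p = 0.0355), which held in 2 of the 6 fits, with an adjusted p of 0.189 without co-treatment library c.

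**Figure D2:**
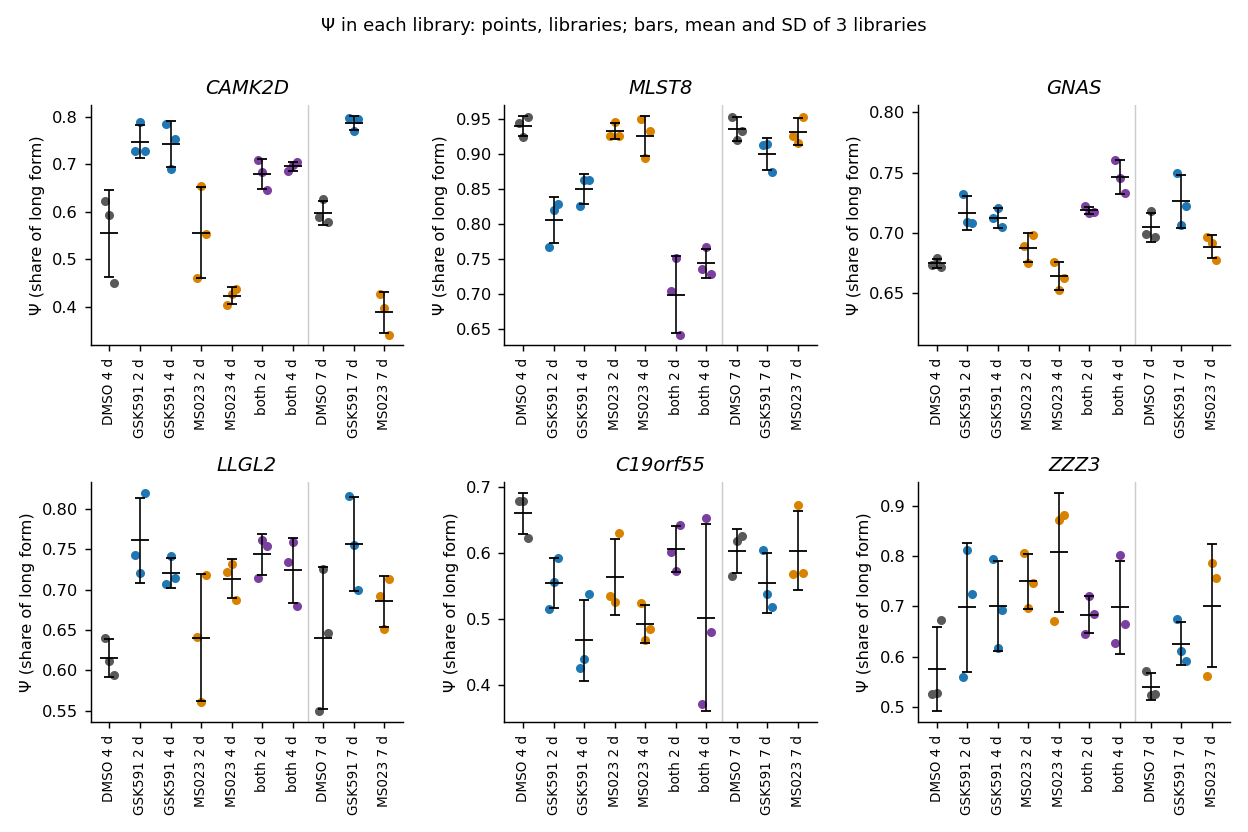
Ψ (y axis, share of the long form; the scale differs between panels) of 6 pairs in each of the 30 libraries (points), with the mean and SD of the 3 libraries of a group (bars) and a vertical line between the 2- and 4-day and the 7-day groups. CAMK2D lies above DMSO with GSK591 and below it with MS023 at 4 and 7 days, MLST8 falls with GSK591 and co-treatment at 2 and 4 days, and ZZZ3 lies between 0.697 and 0.806 with MS023 at 2 days.

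Gene groups were lists of gene symbol prefixes, which do not take in every gene of a function. CAMK2D, ZZZ3, NAP1L1, and PUF60 are in none of them. Of all tested tandem acceptors, 45 of 687 (6.55%) were called at least once. The matching share was not taken over all A3SS pairs. In single comparisons with DMSO, 0.156% to 2.98% of tandem acceptors and 2.42% to 12.6% of all A3SS pairs were called. Of 42 pairs in the list of RNA processing genes, 35 were tested, and 3 were called once each, all higher. These were SRSF10, an SR-like splicing factor, with GSK591 at 7 days (ΔΨ of 0.0652, adjusted p = 0.000111), CELF1, a regulator of splicing and mRNA decay, with co-treatment at 2 days (0.107, adjusted p = 0.0189), and the helicase DDX54 with GSK591 at 4 days (0.0470, adjusted p = 0.0458). The call in SRSF10 was kept without any 1 library, while those in CELF1 and DDX54 were kept in 2 and 1 of the 6 fits that leave out 1 library. Of 29 pairs in the chromatin list 25 were tested and 1, MTA3, was called. Of 16 pairs in the list of signalling enzymes 15 were tested and 1, PPP6R2, a regulatory subunit of a protein phosphatase, was called, with a ΔΨ of -0.0785 with co-treatment at 4 days (adjusted p = 0.0134). No pair was called among 16 tested in translation genes, 25 in ZNF genes, and 23 in trafficking and cytoskeleton genes. The median ΔΨ with GSK591 at 4 days was 0.00642 in RNA processing genes, -0.0266 in translation genes, 0.00643 in chromatin genes, -0.0196 in ZNF genes, -0.000743 in trafficking genes, and -0.00209 in signalling enzymes, beside 0.00230 over all tested tandem acceptors. Of the 45 pairs called at least once, 20 were CAG-CAG (44.4%), beside 264 of the 687 tested pairs (38.4%). Of the same 45 pairs, 42 (93.3%) lay before coding sequence, beside 792 of all 902 pairs (87.8%). The 902 include 215 pairs that were never tested, so these shares rest on unlike sets.

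Small shifts passed the test where reads were many. NAP1L1, a histone chaperone, fell with GSK591 at 4 days (ΔΨ of -0.00946, adjusted p = 0.00242) and with co-treatment at 2 and 4 days (-0.00748 and -0.00755, adjusted p = 0.0145 and 0.0119). Of these, the call with GSK591 was kept without any 1 library. GGT1, a γ-glutamyltransferase gene with close relatives, whose pair lies in a 5′ UTR, rose with GSK591 at 7 days (ΔΨ of 0.0950, adjusted p = 0.00150), also without any 1 library.

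GSK591 and MS023 of the same day were also compared directly, without DMSO, in 3 comparisons. At 2 days 4 of 609 pairs differed, against 9.09% of all A3SS pairs, at 4 days 14 of 631, against 14.4%, and at 7 days 11 of 595, against 11.6%. CAMK2D differed on each day, MLST8 at 2 and 4 days, and GNAS at 4 and 7 days, with 0.0485 ± 0.00823 and 0.0379 ± 0.0139 (adjusted p = 7.83e-05 and 0.00312, the second holding in 2 of the 6 fits that leave out 1 library, with 0.172 without GSK591 library a). IKBKG was higher with GSK591 at 4 days by 0.194 ± 0.0585 (adjusted p = 0.000628, held in 5 of the 6 fits, and 0.111 without MS023 library b) and at 7 days by 0.133 ± 0.106 (adjusted p = 0.0423, held in 1 of the 6 fits, and 0.594 without GSK591 library c), where the groups overlapped. Without 1 library the count at 4 days was 7 or 8 without MS023 library b or c, and at 7 days it was 5 and 4 without GSK591 library a and c and 2, 6, and 3 without MS023 library a, b, and c. Between the DMSO groups of 7 and 4 days, 1 of 626 pairs was called, against 2.63% of all A3SS pairs. This pair lies in H2AFY, a macroH2A gene, with a difference of 0.0574 (adjusted p = 0.0108). The call of H2AFY held in 2 of the 6 fits that leave out 1 library. The count of called pairs was 0 without DMSO 7 days library b or c or DMSO 4 days library b, and 2 without DMSO 4 days library a.

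Effects at 7 and at 4 days rest on different libraries throughout. The ΔΨ of GSK591 on both days had a Pearson r of 0.0745 and a Spearman's rho of 0.0416 across 594 pairs, and those of MS023 0.0697 and 0.0429 across 606 pairs. The pairs share the libraries of each day and differ in depth, so these values are descriptions only. Of the 11 pairs called with GSK591 at 4 days, 7 had a ΔΨ of the same sign at 7 days, and of the 7 called with MS023 at 4 days, 7 did. Over all pairs tested on both days, the sign was the same in 50.3% with GSK591 and in 52.8% with MS023. With GSK591, CAMK2D was the only pair called on both days, and with MS023 CAMK2D was called on both days as well. The interaction test called 0 of 594 pairs for GSK591 and 0 of 606 for MS023. At an unadjusted p under 0.05 were 36 (6.06%) and 35 (5.78%), against 11.2% and 7.69% of all A3SS pairs. Limma on log2 odds also called 0, with 17 and 22 pairs at an unadjusted p under 0.05. Of all A3SS pairs 1.08% and 0.0199% were called by the interaction test. For GSK591, 1 pair was called without GSK591 4 days library a or DMSO 4 days library b.

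**Figure D3:**
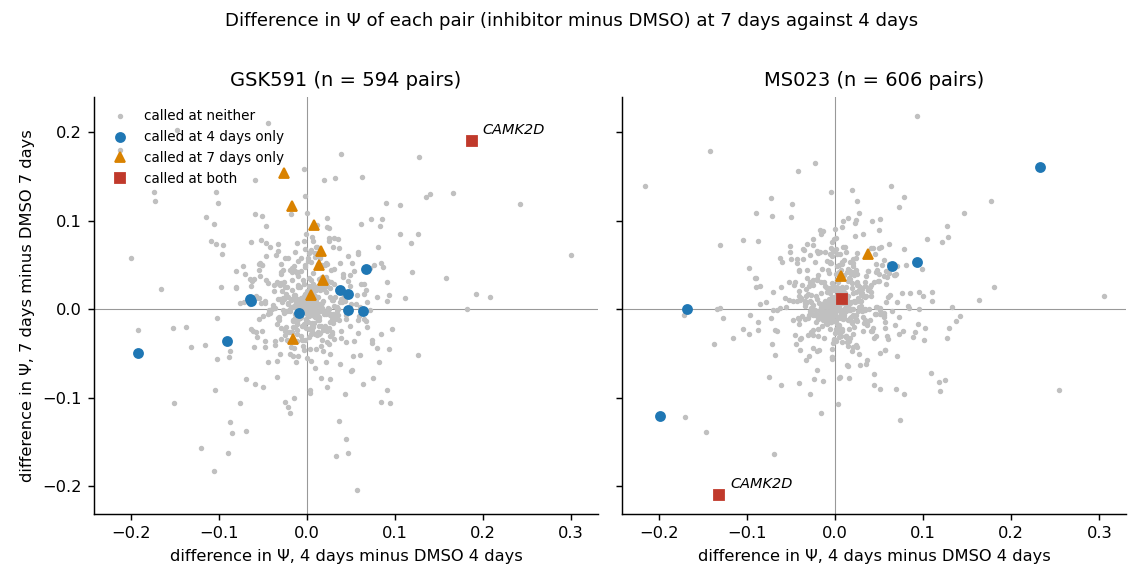
ΔΨ at 7 days (y axis) against ΔΨ at 4 days (x axis) of each pair tested on both days, with GSK591 (594 pairs) and MS023 (606 pairs). Colours and shapes mark the day on which a pair was called, and CAMK2D is labelled, at 0.188 and 0.189 with GSK591 and at -0.131 and -0.210 with MS023, while most pairs form a cloud around 0 on both axes.

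The inclusion count of a pair can also take in reads that run unspliced from the intron into the exon. A retained intron (RI) that ends at 1 of the 2 acceptors was listed for 42 of the 902 pairs, and among the pairs called in the 8 comparisons for 2, CNBP and FBF1. For the CNBP intron that ends at the upstream acceptor, the Ψ of the RI was 0.0323 ± 0.00315 (SD) in DMSO at 7 days and 0.0514 ± 0.00864 with GSK591 at 7 days, where the Ψ of the tandem acceptor was lower. For the RI that ends at the downstream acceptor it was 0.0261 ± 0.00206 and 0.0292 ± 0.00516. FBF1 was called with GSK591 at 4 days (ΔΨ of -0.0641, adjusted p = 0.0384), and has an RI listed for each acceptor. The Ψ of the RI that ends at the upstream acceptor was 0.218 ± 0.0547 in DMSO and 0.232 ± 0.109 with GSK591, and that of the RI that ends at the downstream acceptor was 1 ± 0 and 0.784 ± 0.170. The part of unspliced reads in these results was not tested. No RI of the same intron was listed for CAMK2D, MLST8, GNAS, or LLGL2.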

How the data were processed

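Splicing in A549 cells was taken from the tables that the authors made with rMATS on hg19 for each of 8 comparisons, from poly(A)-RNA libraries. The deposited values are whole-number counts of reads for the long and the short form, joined by commas per library, with the effective length of each form, 152 and 149. The counts include reads on the exon body. The submitters' processing notes name Trim Galore 0.6.5, STAR 2.4.2a, Picard 2.3.0, and deepTools 3.3.1. The 16 columns of Ψ computed by the authors, and their p-values, FDR, and differences, were not used. Samples of other assays were not analysed here.

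Positions were annotated here with a GENCODE release lifted to GRCh37. Ψ was computed from counts divided by effective length. A pair needed 10 reads in every library of a comparison. Both forms were fitted in a quasi-binomial model whose dispersions were moderated across all A3SS rows with limma 3.58.1 (R 4.3.3), and p-values were adjusted by Benjamini-Hochberg over all A3SS rows tested. Counts of a group that several tables list were identical in 23889 of 23889 event and group pairs, so groups were also compared across tables. Pairs were called at an adjusted p under 0.05. The script was tested on simulated data. Figures and summaries used Python 3.11.15, pandas 2.3.3, and matplotlib 3.10.9. Named pairs were those with at least 50 reads and the 3 largest absolute ΔΨ among the calls of each comparison with DMSO, the 5 called most often, and the 3 with the most DMSO reads whose rarer form held 20% or more. Members, gene groups, and tests were chosen with earlier results of these data known. Alternatives were a minimum of 20 reads, limma on log2 odds with 0.5 added to each count, 1 row per pair, a rarer form of at least 5%, an absolute ΔΨ of at least 0.05, Ψ without effective lengths, and leaving out each library. Libraries of a group differed by more than sampling noise. Some named pairs are not reported here.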

Additional observations from a re-analysis of the deposited data

How the results depend on the processing

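Counts of called pairs kept within 1.5 times of the reported ones with a minimum of 20 reads, with 1 row per pair, and with a rarer form of at least 5%. With limma on log2 odds they were 0 for each of GSK591 and MS023 on all 3 days, 1 and 2 with co-treatment at 2 and 4 days, 0, 1, and 1 for GSK591 against MS023 at 2, 4, and 7 days, and 0 between the DMSO groups. The cause was not tested. With an absolute ΔΨ of at least 0.05 GSK591 kept 7 pairs at 4 days and 6 at 7 days, and MS023 kept 2 at 7 days. Leaving out 1 library gave 2 to 3, 6 to 10, and 4 to 8 calls with GSK591 at 2, 4, and 7 days, 0 to 2, 0 to 6, and 1 to 4 with MS023, and 3 to 7 and 7 to 13 with co-treatment at 2 and 4 days. It gave 3 to 6, 7 to 13, and 2 to 8 for GSK591 against MS023, 0 to 2 between the DMSO groups, 0 to 1 for the interaction of GSK591 with time, and 0 for that of MS023. Of 33 calls of named pairs, 33 held with 20 reads and 2 with limma on log2 odds. Without effective lengths no mean Ψ of a named pair moved by more than 0.005. No paired analysis was possible because the columns of the tables carry no replicate numbers. Depth limits pairs with few reads, and 215 of 902 could not be tested.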
